A study of Mus musculus with 7 samples.

Results

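Heavy chains built from 5 V genes, IGHV4-1, IGHV7-1, IGHV7-3, IGHV11-2 and IGHV12-3, were followed in B cell receptor libraries of mouse lymph nodes. A cell was taken when it had exactly 1 productive heavy chain and the first V gene named for that chain, with the allele removed, was 1 of the 5. In the 6 libraries that came from a single node of a single genotype, 310 of 17381 such cells used these genes (1.78%, 95% interval 1.59 to 1.99), and 17071 used another V gene. Cells came from deep cervical (dCLN), superficial cervical (sCLN) and inguinal (iLN) lymph nodes of female mice aged 10 to 11 months, either 5xFAD, a transgenic line that serves as a model of Alzheimer's disease, or wild type (WT). Each genotype and node was represented by 1 library, sequenced as paired heavy and light chain contigs from single cells with molecular tags (UMIs). A further library, a mixture of every node and genotype, held 56 such cells among 2488 (2.25%) and was only described. The labels give neither the number of animals in a library nor whether the nodes of a genotype came from the same animals, so the p-values below measure the spread between these libraries, which may not be independent. They also give no strain for the WT mice and no gate for B cells. Cells of several hashtagged tubes were pooled in each library, and the receptor tables used here do not say which tube a cell came from.

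Mouse B-1 cells are self-renewing B cells that arise mainly in early life, when the enzyme TdT, which adds untemplated N bases where V, D and J segments are joined, is little expressed. Their receptors are often close to germline, recur between animals and make much of the natural IgM. IGHV11-2 paired with IGKV14-126 and IGHV12-3 paired with IGKV4-91 are the textbook receptors for phosphatidylcholine, a membrane lipid, and IGHV7-1 paired with IGKV7-33 is that of the T15 antibodies to phosphorylcholine. IGHV7-3 belongs to the same S107 family as IGHV7-1, and IGHV4-1 to the X24 family. The deposited receptor tables hold no gene expression, so no B-1 marker could be examined, and a V gene alone does not make a cell a B-1 cell. Bases left unassigned between V, D and J are used below as the measure of N additions, although they also include palindromic P bases.

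The genes lie on the minus strand of chromosome 12 (GRCm38, GENCODE M21), each with 2 exons, in the part of the V cluster nearer to the J segments. Ighv7-1 spans 113896408 to 113896946 and is the 20th of 113 V genes counted from the J side, 466.6 kb from Ighj1. Ighv4-1 (113948282 to 113948796) is the 23rd, Ighv11-2 (114048241 to 114048812) the 27th, Ighv7-3 (114153180 to 114153644) the 33rd and Ighv12-3 (114366521 to 114366954) the 43rd.

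The junctions that carry the findings are shown from the conserved cysteine codon to the conserved tryptophan codon, or phenylalanine codon for the light chain. They are written 5′ to 3′, and capitals mark bases that the deposited alignments assigned to neither V, D nor J, so that a run without capitals has no N addition by that alignment. Heavy chain loci are on chromosome 12 and the kappa locus is on chromosome 6. First come the end of germline IGHV4-1 inside the junction, the 3 heavy chain junctions of a group of IGHV4-1 cells that all translate to the same 13 residues, and the light chain junction that every cell of the group carried.
Germline IGHV4-1 end: tgtgcaagacc
IGHV4-1 with IGHJ1, main form: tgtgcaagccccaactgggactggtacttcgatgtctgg
IGHV4-1 with IGHJ1, 5xFAD dCLN variant: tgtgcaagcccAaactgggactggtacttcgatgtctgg
IGHV4-1 with IGHJ1, 5xFAD iLN variant: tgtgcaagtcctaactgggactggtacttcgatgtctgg
IGKV1-110 with IGKJ1: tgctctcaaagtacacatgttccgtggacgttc

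Next are the IGHV11-2 junctions found in more than 1 library, both without N additions. The IGHD1-1 junction is among them only because the mixed library is counted. Then come the IGHV12-3 junctions of the cells with the phosphatidylcholine partner IGKV4-91, followed by the IGHV12-3 junction seen in a pair of barcodes.
IGHV11-2 with IGHJ1 and IGHD2-5: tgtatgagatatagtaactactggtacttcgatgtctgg
IGHV11-2 with IGHJ1 and IGHD1-1: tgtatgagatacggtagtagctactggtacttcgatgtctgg
IGHV12-3 with IGHJ3, 5xFAD iLN: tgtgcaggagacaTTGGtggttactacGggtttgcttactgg
IGHV12-3 with IGHJ1, WT iLN: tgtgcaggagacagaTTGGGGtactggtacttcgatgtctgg
IGHV12-3 with IGHJ4, WT sCLN: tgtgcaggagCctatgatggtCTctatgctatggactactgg

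The most repeated junctions of IGHV7-1 and IGHV7-3 and a class-switched IGHV4-1 pair complete the set.
IGHV7-1 with IGHJ1, IgG3, 5xFAD dCLN: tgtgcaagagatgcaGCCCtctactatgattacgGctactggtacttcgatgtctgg
IGHV7-1 with IGHJ1, WT dCLN: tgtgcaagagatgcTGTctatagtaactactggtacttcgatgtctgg
IGHV7-3 with IGHJ4, WT dCLN: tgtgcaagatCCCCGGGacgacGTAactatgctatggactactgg
IGHV7-3 with IGHJ1, IgG1, WT sCLN: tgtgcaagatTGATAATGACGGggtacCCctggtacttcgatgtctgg
IGHV4-1 with IGHJ3, IgG2c, WT sCLN: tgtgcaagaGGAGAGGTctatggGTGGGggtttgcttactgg
IGHV4-1 with IGHJ3, IgG2c, WT dCLN: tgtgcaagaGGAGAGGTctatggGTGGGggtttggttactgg

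The 5 genes were not equally used. IGHV4-1 was named in 138 cells and stood 44th of 96 V genes by number of cells, IGHV7-3 was named in 103 cells (55th) and IGHV7-1 in 47 (67th). The phosphatidylcholine genes were rare, with 14 cells of IGHV11-2 (85th) and 8 of IGHV12-3 (92nd). IGHV4-1 had 39 5xFAD and 24 WT cells in deep cervical libraries, 15 5xFAD and 36 WT cells in superficial cervical libraries, and 12 in each inguinal library. IGHV7-3 had 24 5xFAD and 29 WT cells in deep cervical, 11 5xFAD and 17 WT cells in superficial cervical, and 14 5xFAD and 8 WT cells in inguinal libraries. IGHV7-1 stayed between 5 cells in the 5xFAD iLN and 12 in the WT dCLN. IGHV11-2 had between 2 and 4 cells in 5 libraries and was not seen among 2107 cells of the 5xFAD iLN, which allows a share of up to 0.142%. IGHV12-3 had 1 or 2 cells in every library. No member cell carried a joint call with another V gene.

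**Figure D1:**
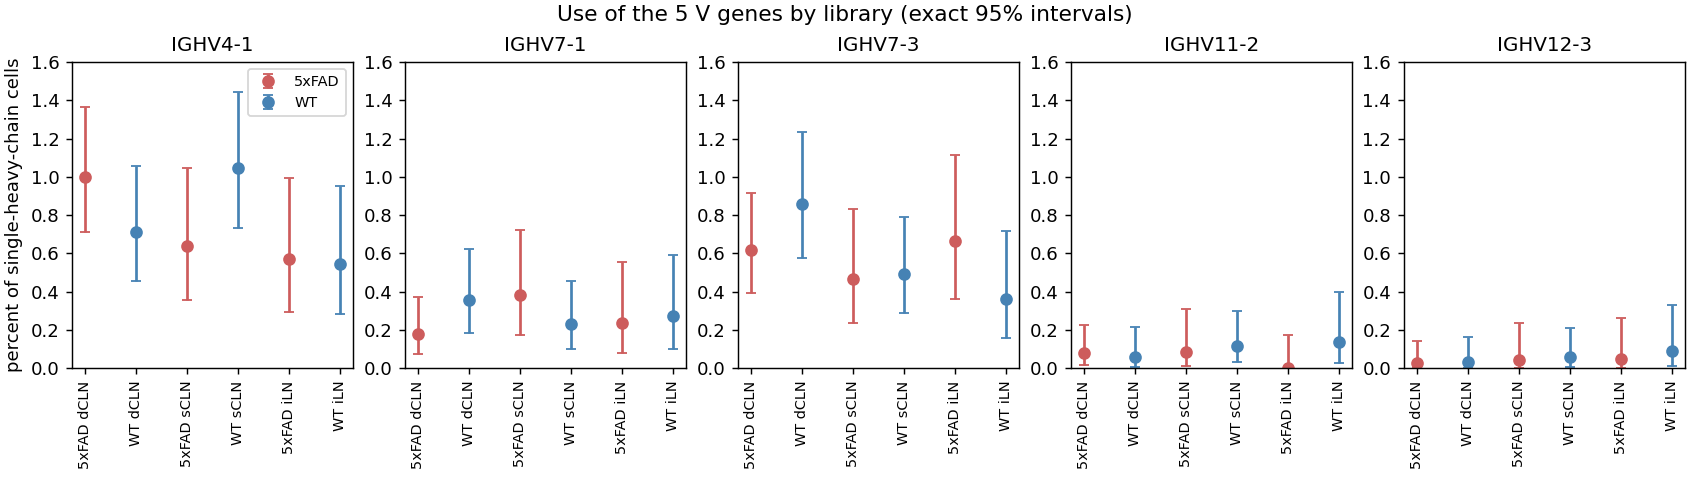
Share of single-heavy-chain cells that used each of the 5 V genes (y axis, percent) in each library (x axis, 5xFAD red, WT blue). Points are the share in 1 library and bars the exact 95% interval, which covers counting error only; IGHV4-1 was highest at 0.999% in the 5xFAD dCLN and 1.05% in the WT sCLN, and IGHV12-3 stayed below 0.1% in all 6 libraries.

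Whether the genes were used differently in 5xFAD mice was asked within each node. All 5 together made up 1.90% of 5xFAD and 2.02% of WT dCLN cells, 1.61% of 5xFAD and 1.95% of WT sCLN cells, and 1.52% of 5xFAD and 1.41% of WT iLN cells. Subtracting the WT from the 5xFAD share gave -0.120 points for dCLN (interval -0.789 to 0.535), -0.335 for sCLN (interval -1.03 to 0.402) and 0.110 for iLN (interval -0.646 to 0.874), so each 95% interval held both signs. Over the 3 nodes it averaged -0.115 ± 0.222 (SD; exact two-sided sign-flip p = 0.5, smallest possible 0.25). The average was -0.00513 without the sCLN pair and -0.227 without the iLN pair. For IGHV4-1 the difference was 0.288 for dCLN, -0.410 for sCLN and 0.0241 for iLN libraries, so its sign changed between nodes, as did those of IGHV7-1, IGHV7-3 and IGHV11-2. IGHV12-3 was lower in 5xFAD libraries in all 3 nodes, on 3 cells in 5xFAD and 5 in WT libraries. Among the 83 V genes with 20 or more cells, which do not include IGHV11-2 and IGHV12-3, 14.5% were lower and 14.5% higher in 5xFAD libraries in all 3 nodes.

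Between node types, the 5 genes averaged 1.87% in the 4 cervical and 1.46% in the 2 inguinal libraries. Every cervical library lay above both inguinal ones, and the difference of 0.404 percentage points had an exact two-sided permutation p of 0.0667, the smallest that 15 assignments of libraries can give. IGHV4-1 supplied most of it, at 0.848% in cervical and 0.557% in inguinal libraries (exact permutation p = 0.133). Without IGHV4-1 the difference was 0.113 (exact permutation p = 0.6). With identical receptors counted once it was 0.344 (exact permutation p = 0.133). The share of all V genes with every cervical library above both inguinal ones was not counted.

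The cells of these genes were then set against all other cells of the same library in 9 measures, with the library as the unit. A difference was called where its Benjamini-Hochberg adjusted p over the 9 measures was below 0.05, from an exact two-sided sign-flip test over 6 libraries whose smallest p is 0.03125. No measure passed. The lowest adjusted p, 0.0703, was shared by the 4 measures with one sign in 6 of 6 libraries: bases between segments, cells without such bases, IGHJ1 use and class switching. Their exact sign-flip p was the smallest possible, and more than 4 measures would have had to reach it for any to pass. As background, each V gene with cells in all 6 libraries was compared with all other cells in the same way, and the share of genes on one side in 6 of 6 libraries is given with each measure.

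Junctions of the 5 genes held fewer bases between V, D and J than other junctions in every library. The mean was 5.14 bases in member cells and 7.19 in others in the 5xFAD dCLN, 5.88 and 7.30 in the WT dCLN, 5.97 and 7.28 in the 5xFAD sCLN, 5.31 and 7.10 in the WT sCLN, 5.77 and 7.15 in the 5xFAD iLN, and 5.03 and 7.19 in the WT iLN. The library means of members and others did not overlap, but single cells did (5.51 ± 3.74 and 7.20 ± 3.89, SD over cells). How many single V genes had library means apart in this way was not counted. The difference averaged -1.68 ± 0.366 bases (SD, n = 6 libraries; exact sign-flip p = 0.03125, adjusted p = 0.0703), and the mixed library had 5.06 and 7.06. Among single genes, IGHV7-1 was lower in 6 of 6 libraries, which held for 11.1% of the 81 V genes compared (4.94% were higher in all 6). IGHV7-1 had the lowest mean of the 81 genes, 4.06 bases, with library means from 3 to 5 (exact sign-flip p = 0.03125, adjusted p over all genes = 0.195). IGHV4-1, at 5.81 bases, and IGHV7-3, at 5.88, were the 77th and 76th of 81 from the highest, and were lower in 5 and 4 of 6 libraries. Germline ends differ between V genes, and how much of the difference follows from the length that each V end leaves in the junction was not tested.

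Junctions with no such bases at all made up 6.59% of member cells and 1.51% of other cells, as means over libraries. The difference of 5.08 ± 3.73 percentage points (SD) was positive in 6 of 6 libraries (exact sign-flip p = 0.03125, adjusted p = 0.0703), between 1.89 in the 5xFAD iLN and 11.7 in the WT iLN. None of the 81 V genes alone was higher in 6 of 6 libraries (0%), and 24.7% were lower. With 1.51% of other cells lacking such bases, a gene with few cells can have none of these junctions in a library. It then cannot be higher in 6 of 6. The shares for single genes therefore cannot show how unusual 6 of 6 is for a set of 5 genes. Over all libraries 18 of 285 member cells with a D call lacked such bases (6.32%, 3.79 to 9.80), from 11 distinct junctions, against 231 of 15405 others (1.50%, 1.31 to 1.70). IGHV11-2 had 3 of 10 cells (30%, 6.67 to 65.2), from 2 distinct junctions. Its 4 cells without a D call were not counted, and each had unassigned bases between V and J. IGHV12-3 had 1 of 7 cells, IGHV7-1 2 of 43 and IGHV7-3 2 of 96. IGHV4-1 had 10 of 129 cells from 4 distinct junctions, and most of these belong to the group shown above. In that group the V alignment runs across a base that differs from germline, at position 318 of the deposited numbering. When V was cut back to the last matching base, the main form had 3 unassigned bases, IGHV4-1 kept 2 of 129 cells without any (1.55%), all members 10 of 285 (3.51%) and others 224 of 15405 (1.45%). The mean difference over libraries was then 2.56 points (exact sign-flip p = 0.125). With the group left out it was 2.60 (exact sign-flip p = 0.125).

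**Figure D2:**
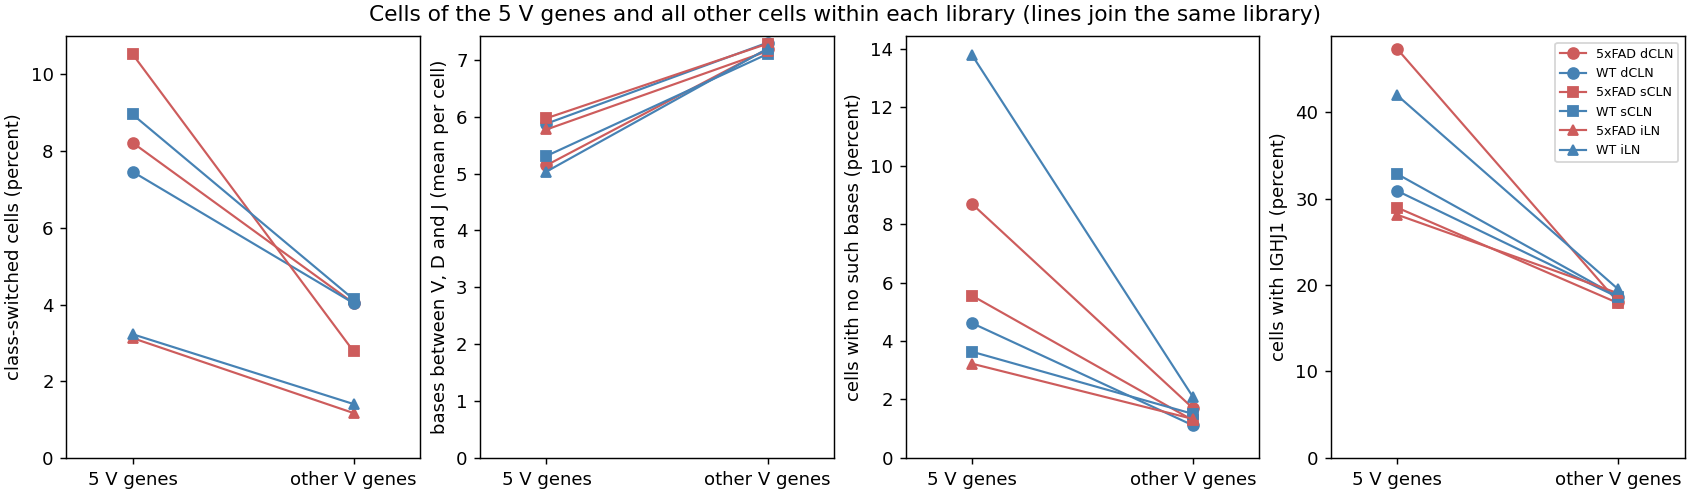
Cells of the 5 V genes and all other cells (x axis) in each of 6 libraries, joined by a line: class-switched cells (percent), bases between V, D and J (mean per cell), cells with no such bases (percent) and cells with IGHJ1 (percent). All 6 lines fall from the 5 genes to the others for switching, cells without such bases and IGHJ1, and all 6 rise for the mean number of bases.

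IGHJ1 is the J segment nearest to the D segments and part of the known T15 and IGHV11-2 receptors. Its share of member cells, against other cells, was 47.3% against 18.0% in the 5xFAD dCLN, 30.9% against 18.6% in the WT dCLN, 28.9% against 17.9% in the 5xFAD sCLN, 32.8% against 18.6% in the WT sCLN, 28.1% against 19.0% in the 5xFAD iLN, and 41.9% against 19.5% in the WT iLN. The lowest member share lay above the highest share of other cells. The share of single V genes that separate in this way was not counted. The difference was 16.4 ± 7.83 percentage points (SD, n = 6 libraries; exact sign-flip p = 0.03125, adjusted p = 0.0703). IGHV4-1 (mean 40.3%) and IGHV7-3 (29.0%) were each higher in 6 of 6 libraries, which held for 4.88% of 82 V genes (3.66% were lower in all 6). They ranked 3rd and 10th of the 82, with an adjusted p of 0.366 over all genes (exact sign-flip). IGHV7-1 and IGHV12-3 were each lower than other cells in 4 of 6 libraries. Of the rare genes, IGHV11-2 had IGHJ1 in 11 of 14 cells (78.6%, 49.2 to 95.3) and IGHV12-3 in 2 of 8. IGHV7-1 used IGHJ1 in 5 of 7 cells of the 5xFAD dCLN and 7 of 12 of the WT dCLN, but in 0 or 1 cell of each other library, and in 5 of 8 cells of the mixed library. In each dCLN library, 3 of these IGHV7-1 cells shared 1 junction, so they are not separate receptors by heavy chain. Only 1 of the 15 IGHV7-1 cells with IGHJ1 had no N additions, and that cell used IGHD4-1 and IGKV4-72, not the T15 partner IGKV7-33. IGHJ2 was rare beside IGHV4-1 (5.07%) and IGHV7-1 (6.38%), against 26.2% with IGHV7-3 and 33.8% in other cells.

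**Figure D3:**
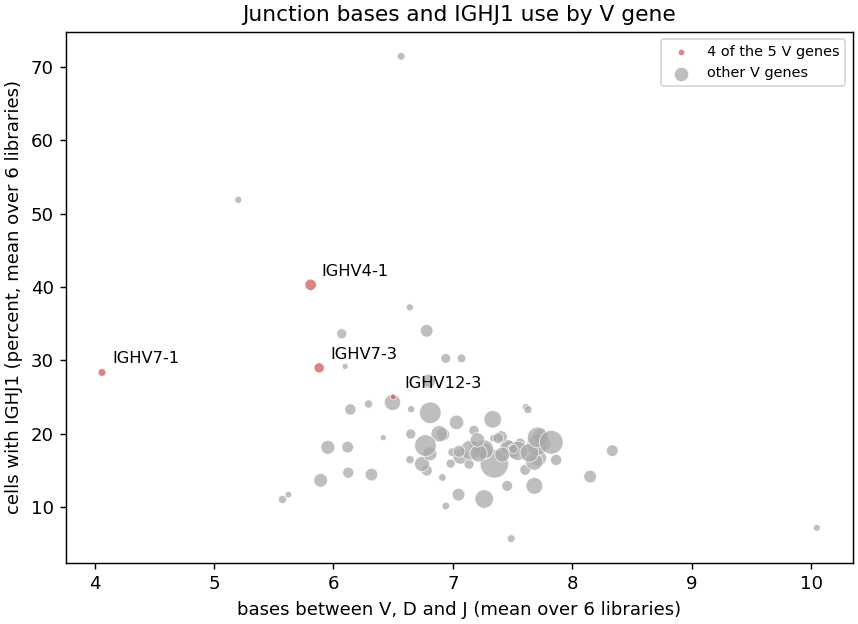
Mean number of bases between V, D and J (x axis) and share of cells with IGHJ1 (y axis, percent) for 81 V genes, each a mean over 6 libraries; dot area grows with the number of cells. IGHV7-1 lies farthest left at 4.06 bases, IGHV4-1 is 3rd from the top at 40.3%, and IGHV12-3 rests on 8 cells; IGHV11-2 is not shown because it had no cell in the 5xFAD iLN.

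Junction length did not separate the groups as clearly: it averaged 43.6 bases in member cells and 42.3 in others, with 5 of 6 libraries higher (mean difference 1.27, from -0.0747 in the WT sCLN to 2.80 in the 5xFAD sCLN; exact sign-flip p = 0.0625, adjusted p = 0.113). IGHV7-3, at 44.1 bases, was longer in 6 of 6 libraries, which held for 14.6% of V genes (13.4% were shorter in all 6). IGHV12-3 carried a further known mark of phosphatidylcholine receptors, a loop of 10 residues, counted after the first 3 residues of the junction, with glycine at position 4. It was present in 6 of 8 IGHV12-3 cells (75%, 34.9 to 96.8, 5 distinct junctions) and in 504 of 17373 other cells (2.90%, 2.66 to 3.16). Only 2 of these 6 cells carried the phosphatidylcholine partner IGKV4-91. The others were a WT sCLN pair with 1 junction and IGKV6-20, a WT dCLN cell with IGKV8-24 and an IgG1 cell of the WT iLN with IGLV1. The single IGHV12-3 cell of the mixed library did not have the loop.

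Most cells of the 5 genes had not switched class. Of 308 with a constant region call, 224 were IgM and 61 IgD. Class-switched cells averaged 6.92% of member cells and 2.93% of other cells over libraries (difference 3.99 ± 2.19 points, SD; higher in 6 of 6 libraries; exact sign-flip p = 0.03125, adjusted p = 0.0703). Switched member cells numbered 6 of 73 in the 5xFAD dCLN, 5 of 67 in the WT dCLN, 4 of 38 in the 5xFAD sCLN, 6 of 67 in the WT sCLN, 1 of 32 in the 5xFAD iLN and 1 of 31 in the WT iLN, so each inguinal value rests on 1 cell. No member gene alone was higher in all libraries. Across V genes 1.22% were, and 19.5% were lower. A gene with no switched cell in a library cannot be higher there. These shares for single genes therefore cannot show how unusual 6 of 6 is for a set of 5 genes. With each heavy junction counted once the difference was 2.82 points.

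The 23 switched cells came from 17 distinct junctions and were divided by isotype as 9 IgG2c, 6 IgG2b, 5 IgG3 and 3 IgG1. IgG3, an isotype linked to T-independent responses to carbohydrates, was the call of 5 of 308 member cells (1.62%, 0.529 to 3.75) and 13 of 16870 others (0.0771%, 0.0410 to 0.132). Of these 5, 4 used IGHV7-1, but 3 of the 4 shared the junction shown above in the 5xFAD dCLN, at 2, 20 and 59 heavy chain UMIs. Their light chains were IGKV6-32, IGKV6-17 and none, and their V regions held 1.96%, 2.94% and 1.96% mismatches, so whether they are 1 clone could not be told. The other IgG3 cells were an IGHV7-1 cell of the WT sCLN with IGKV4-53 and an IGHV7-3 cell of the 5xFAD dCLN with IGLV1. IgA was not called in any of the 308 cells, which allows 0.974%, against 58 of 16870 others (0.344%), so a lower share was not detectable at this depth. IGHV4-1 had 11 switched cells, 7 of them IgG2c and 4 IgG2b, IGHV7-3 had 6, and IGHV12-3 had 1, an IgG1 cell of the WT iLN. IGHV11-2 had 0 of 14.

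Switched member cells carried 1.55 ± 1.57% V mutations and other switched cells 2.67 ± 2.51% (SD over 23 and 540 cells, which are not independent; not tested). The IgG1 cell of IGHV12-3 had the highest value of the members, 5.76%, and 7 of the 23 had none. A pair of IgG2c cells of IGHV4-1 with IGKV13-85 in the WT sCLN had 612 and 909 heavy chain UMIs and 3.40% mutations. A WT dCLN cell whose junction differed from theirs by 1 base had the same isotype and mutation level but only 1 UMI and another light chain, IGKV17-127. Both junctions are shown above, and whether that 1 molecule came from the cell it was assigned to was not tested. Members with at least 100 heavy chain UMIs numbered 3 of 310, against 65 of 17071 others (0.381%), with the pair above joined by an IgM cell of IGHV11-2 in the WT iLN at 116. The median was 14 UMIs in member cells and 11 in others.

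Unswitched cells of the genes were close to germline. Mean V mutation was 0.0655% in members and 0.0220% in others, higher in 3 and lower in 3 of 6 libraries (difference 0.0435 ± 0.0794, SD; exact sign-flip p = 0.25, adjusted p = 0.321). Without the WT iLN the difference was 0.0128, and with identical receptors counted once 0.0212. Across V genes, 3.66% were higher and 37.8% lower in 6 of 6 libraries, IGHV12-3 being lower because none of its 7 unswitched cells had a mismatch. The highest member value, 0.214% in the WT iLN, included a pair of IgM cells of IGHV4-1 with 2.71%. Mismatches outside the junction were present in 7 of 285 unswitched members (2.46%, 0.993 to 4.99) and 445 of 16319 others (2.73%, 2.48 to 2.99). None of 14 IGHV11-2 cells had any mismatch either. Of 19 IGHV4-1 cells with a mismatch, 13 had it only in the junction, all 13 at position 318. Among unswitched cells, IgD made up 20.3% in members and 21.6% in others (difference -1.28 ± 7.46 points, SD, exact sign-flip p = 0.719). No member gene was on one side in 6 of 6 libraries (6.1% of V genes were higher and 12.2% lower). IGHV11-2, with no cell in the 5xFAD iLN, could not be. The IgD call depended on depth, at 60.0% of other unswitched cells with 1 or 2 UMIs and 2.91% of those with 21 or more. With both sets weighted to the same UMI bins the difference was 4.65 points.

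By number of cells, the largest set of alike receptors was in IGHV4-1. Its group with IGHJ1, IGHD4-1 and IGKV1-110 held 9 cells in 4 of the 6 libraries, 6 in the 5xFAD dCLN and 1 each in the WT dCLN, 5xFAD iLN and WT iLN, and 2 more in the mixed library. All were IgM. The main junction accounted for 5 cells of the 5xFAD dCLN and those of the WT dCLN and WT iLN, and both cells of the mixed library, with 9 different barcodes and 7 to 27 heavy chain UMIs. The 5xFAD dCLN and iLN each had a variant that differed in bases but not in the translated residues. In every cell the light chain junction was identical and had no N addition. That light junction is common, present in 113 cells with 49 heavy chain V genes, but all 9 IGHV4-1 cells with IGKV1-110 in the 6 libraries belonged to the group, and no other V gene carried the same translated loop. The 15 pairs of libraries shared 4 to 35 barcodes each, 225 barcodes in all, and 0 of these had the same heavy junction in both libraries. Carry-over of RNA between libraries was not tested beyond that count.

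IGHV11-2 gave the other junction that crossed libraries. The IGHD2-5 junction was present in 1 cell each of the WT dCLN, WT sCLN and mixed library, with IGKV14-126 and IGKJ2 in the 2 cells with a single light chain and between 4 and 10 UMIs. The IGHD1-1 junction was in 1 cell of the WT iLN and 1 of the mixed library, both with IGKV14-126 and IGKJ4. Taken over the 6 libraries, junctions found in another of the 6 libraries held 9 member cells of 310 (2.90%, 1.34 to 5.44), from 2 junctions, and 56 of 17071 others (0.328%, 0.248 to 0.426), from 15. As means over libraries the shares were 2.40% and 0.304%, a difference of 2.10 ± 2.52 points (SD; higher in 4 of 6 libraries; exact sign-flip p = 0.125, adjusted p = 0.188). It was 1.22 without the 5xFAD dCLN and 1.38 with identical receptors counted once. With the IGHV4-1 group left out it was 0.193 (exact sign-flip p = 0.5). IGHV7-1, IGHV7-3 and IGHV12-3 shared no junction with another library and so lay below the other cells in 6 of 6, as did 84.1% of V genes, while 0% lay above.

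Within a library, 33 of 310 member cells (10.6%, 7.44 to 14.6) had a junction present in another barcode, against 1487 of 17071 others (8.71%, 8.29 to 9.14). Over libraries the difference was 0.818 ± 5.81 points (SD; higher in 4 of 6; exact sign-flip p = 0.719), and it was -7.28 in the 5xFAD iLN, where no member junction repeated. No member gene was on one side in 6 of 6 libraries (1.22% of V genes were higher and 9.76% lower). IGHV11-2, with no cell in the 5xFAD iLN, could not be, and was lower in the 5 libraries where it had cells. Of the 14 repeated member junctions, 13 had the same light chain in each barcode. IGHV7-1 had 3 cells of the WT dCLN with IGKV6-23, at 1 to 7 UMIs. The IGHV7-3 junctions shown were each in a pair of cells, in the WT dCLN with IGKV3-2 and as IgG1 in the WT sCLN with IGKV10-96. The IGHV12-3 pair in the WT sCLN carried IGKV6-20, at 4 and 15 UMIs. Sister cells and RNA of 1 cell in a pair of droplets cannot be told apart here.

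Light chain partners were compared in cells with exactly 1 productive light chain. IGKV14-126 was the partner of 3 of 10 IGHV11-2 cells (30%, 6.67 to 65.2) and of 59 of 15753 other cells (0.375%, 0.285 to 0.483). The 3 cells came from the 5xFAD sCLN, WT sCLN and WT iLN, and none of the single cells in the 5xFAD dCLN and WT dCLN had it (difference 24.6 ± 25.1 points, SD, n = 5 libraries; exact sign-flip p = 0.25, adjusted over 3 pairs 0.375). In the mixed library all 3 IGHV11-2 cells had IGKV14-126, so the genes met there in 3 of 13 IGKV14-126 cells. IGKV4-91 was the partner of 2 of 8 IGHV12-3 cells (25%, 3.19 to 65.1) and of 82 of 15755 others (0.520%). Both were inguinal IgM cells without mutations and with the 10-residue loop, at 80 UMIs in the 5xFAD iLN and 60 in the WT iLN (difference 24.5 ± 41.9 points, SD, n = 6 libraries; exact sign-flip p = 0.5, adjusted 0.5). Without the 5xFAD iLN, where the single IGHV12-3 cell had this partner, the difference was 9.46. IGKV7-33 was not seen in 43 IGHV7-1 cells, which allows 6.98%, and was rare elsewhere, in 4 of 15720 other cells. The commonest partners of IGHV7-1 were IGKV5-48 in 5 cells, against 1.46% of other cells, IGKV17-121 in 4, against 1.77%, and IGKV6-23 in 4, against 2.97%. The 4 IGKV6-23 cells were only 2 distinct receptors, since 3 of them shared the WT dCLN junction shown.

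The most frequent partner of IGHV4-1 was an unlisted one, the lambda gene IGLV1, which was noticed after its values were seen and is given without a test. IGLV1 was in 25 of 124 IGHV4-1 cells (20.2%, 13.5 to 28.3), made of 23 distinct receptors, and in 539 of 15639 other cells (3.45%, 3.17 to 3.74). Of 81 V genes compared, IGHV4-1 had the highest share, before IGHV9-4 (14.6%) and IGHV2-9 (10%). The cells numbered 6 of 33 in the 5xFAD dCLN, 5 of 24 in the WT dCLN, 1 of 15 in the 5xFAD sCLN, 10 of 30 in the WT sCLN, 3 of 11 in the 5xFAD iLN and 0 of 11 in the WT iLN. In the mixed library it was 1 of 17 (5.88%), close to the 4.64% of its other cells. The WT iLN and the mixed library therefore did not show the excess. IGKV1-110 and IGKV10-96 followed with 9 cells each, and the IGKV1-110 cells were the group above. IGHV7-3 was most often paired with IGKV6-23, in 9 of 92 cells (9.78%, 4.57 to 17.8), against 2.95% of other cells. These 9 cells were 9 distinct receptors from 4 of the 6 libraries. Like IGLV1 and the commonest IGHV7-1 partners, IGKV6-23 was picked for its frequency in these same cells. A share above other cells follows partly from that choice and was not tested.

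**Figure D4:**
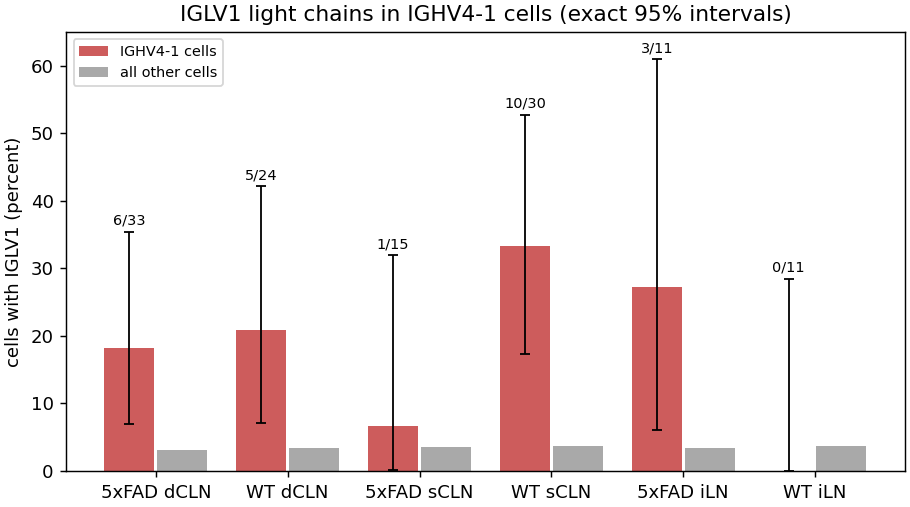
Share of cells with the lambda light chain gene IGLV1 (y axis, percent) among IGHV4-1 cells (red) and all other cells (grey) in each library (x axis). Bars start at 0, error bars are exact 95% intervals for counting error, and the numbers give IGLV1 cells over IGHV4-1 cells with a single light chain; the highest share was 10 of 30 cells in the WT sCLN and the WT iLN had 0 of 11.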

How the data were processed

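Single-cell B cell receptor contigs came from a Chromium 5' kit, with cells marked by hashtag antibodies, per the labels' protocols. The submitters' processing notes name Cell Ranger 6.0.1, Seurat 4.1.0 and mm10 but not what each was used for. The deposited tables list productive contigs with V, D and J calls, and the germline set behind them is not given in the sources used here. The deposited numbers of UMIs and reads are raw counts for each contig, per the file headers. The deposited V identity is a fraction, per the file headers, and was only compared with mismatches counted in the deposited alignments. Junctions and unassigned stretches were measured in bases by the authors.

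Cells with several heavy chains were dropped because they may be doublets, no doublet caller was run, and no UMI minimum was set. The 6 libraries held 2107 to 3904 single-heavy-chain cells, with medians of 9 to 13 heavy chain UMIs. The mixed library had 2488 cells and a median of 8. Switched means IgG, IgA or IgE. Mutation is the percent of aligned V bases that differ from germline, and no member gene had a mismatch fixed in 80% or more of its cells. Bases between segments were counted only in cells with a D call, and junction lengths in all cells. Intervals of shares are exact Clopper-Pearson 95% intervals, and 0 cells were given a limit of 3 counts; both cover counting error only. Intervals of differences combine both exact intervals by square-and-add.

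Libraries were the unit of every test: sign-flips over 6 libraries or 3 nodes, and assignments of 4 cervical and 2 inguinal libraries, enumerated in full with Python 3.11.15, numpy 2.4.6, pandas 2.3.3 and scipy 1.17.1. Figures used matplotlib 3.10.9. The named genes were the 5 members, with their listed partner and 3 most frequent light chain genes. Junctions shown were the most frequent of each gene and those in several libraries, the mixed library included, with the same light chain. The IGHV4-1 variants, its light junction, the IGHV12-3 cells with IGKV4-91 and the IgG2c junctions were added after their values were seen. Members and lists were chosen with earlier results of these data known. The sign-flip test was tried on simulated shares at an unadjusted p below 0.05, with a planted difference close to that of IGHJ1. The adjusted rule used for calls was not simulated. Alternatives changed the UMI minimum, the chains required, the counting of identical receptors, ambiguous V calls, IGHV4-1, the N allowance and the definition of shared junctions.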

Additional observations from a re-analysis of the deposited data

Results flagged for a closer look

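The mixture of every node and genotype, which entered no comparison, held 56 cells of the 5 genes among 2488 (2.25%, 1.70 to 2.91). They were 22 of IGHV4-1, 22 of IGHV7-3, 8 of IGHV7-1, 3 of IGHV11-2 and 1 of IGHV12-3. Its member cells had a mean of 5.06 bases between segments and its other cells 7.06, IGHJ1 made up 33.9% and 20.5%, and switched cells 9.09% and 6.88%. The IGHV4-1 main form was in 2 of its cells, and each IGHV11-2 junction shown in 1.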

How the results depend on the processing

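Of 189 recomputed values, 7 changed sign. No result had an adjusted p below 0.05 as reported, and the tests over 5 libraries, 3 nodes or 15 assignments cannot reach it. Measures with one sign in 6 of 6 libraries had the smallest possible exact sign-flip p, which adjustment over 9 measures raised above 0.05. With IGHV4-1 left out of the members, the mutation difference was -0.0056 and the difference in repeated junctions -1.54, and with the IGHV4-1 group left out, a choice made after seeing the data, the difference in repeated junctions was -0.147. Weighted to UMI bins, the IgD difference was 4.65. Without 1 library at a time, repeated junctions ran from -0.619 to 2.44 and IgD from -3.09 to 0.858. The alternatives gave 2.82 to 4.60 points for switching (exact sign-flip, adjusted p 0.0563 to 0.141). For cells without N additions they gave 2.56 to 5.76 points (adjusted p 0.0563 to 0.225), or 12.1 where up to 2 bases between segments were allowed. They gave -1.80 to -1.47 bases for mean N additions, 13.2 to 16.3 points for IGHJ1 and 0.193 to 2.65 for shared junctions. With 5 libraries the smallest p is 0.0625. Single-gene values of IGHV11-2 and IGHV12-3 are limited by 14 and 8 cells. Comparisons were paired by node or library, apart from cervical against inguinal libraries, which was unpaired and took no account of genotype. No pairing by replicate number was made because each node and genotype had 1 library.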
